A study of Mus musculus with 4 samples.

Results

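C-to-U editing sites from a method that maps N6-methyladenosine (m6A) were examined in the mRNAs of cell adhesion genes in mouse cortex. Members were the rows of the deposited site list whose gene symbol begins with Cdh, Pcdh, Cntn, Cadm, Ncam, Nectin, Lrrtm, Lrfn, Slitrk, Flrt or Tenm, or is Nrcam, Nfasc, L1cam, Chl1, Lsamp, Opcml, Ntm or Negr1. The rule used symbols only, and it found 647 sites in 55 genes, out of 28412 sites in 4206 genes. It covers leucine-rich repeat proteins, cadherins and contactins, and also immunoglobulin-type molecules and the teneurins.

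The sites come from scDART-seq, in which the cytidine deaminase APOBEC1, fused to the m6A-binding YTH domain, edits cytosines beside m6A. All the mice received tamoxifen. Dosing with 20 mg/kg began at an age of 6 to 8 weeks and went on for 5 days at intervals of 24 h. Cortex was collected 7 days after dosing ended. The 4 samples are sublibraries of a single pool of dissociated, split-pool barcoded cortical cells. That pool mixed cells of the genotypes APOBEC1-YTH and APOBEC1-YTHmut, the second with a mutated YTH domain, and replicates 1 and 2 were pooled. The sources used here do not give the promoter that drives the fusion or the cells that carry it. The pool gave 1 list, without sample, genotype or cell type. A site therefore cannot be assigned to cells with the intact or the mutated YTH domain, and whether each site marks m6A was not tested. Nothing below is therefore a comparison of conditions, there are no replicates, no test between groups was possible, and read depth per site is unknown. The list holds no expression values, so the labelled tissue was not checked against marker levels, and a site that is missing cannot be told apart from an mRNA that is low.

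Cell adhesion molecules hold neurons and glia together, guide axons and line up the membranes on either side of a synapse. Cadherins and protocadherins bind through calcium-dependent cadherin repeats. Contactins, NCAM, the L1 family, IgLONs and SynCAMs bind through immunoglobulin domains, and Lrrtm, Lrfn, Slitrk and Flrt proteins through leucine-rich repeats. m6A is written on nuclear RNA by the METTL3-METTL14 complex at adenosines followed by C. In most tissues it is known to be dense near stop codons and in long internal exons, and sparse in coding sequence close to splice junctions.

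Many adhesion genes carried at least 1 site. Among 149 annotated protein-coding genes that meet the symbol rule, 54 were listed, which is 36.2%, beside 17.4% of all 21924 protein-coding symbols of the annotation. The remaining listed symbol, Pcdhgb8, is annotated as a polymorphic pseudogene. Without the clustered protocadherins, whose genes share exons, 50 of 93 were listed, which is 53.8%. All members of the L1 family, NCAM, the IgLONs under the rule, the SynCAMs, Lrrtm and the teneurins were listed, families of 2 or 4 genes each. Of 23 cadherins 8 were listed, of 12 non-clustered protocadherins 7, of 6 contactins 2 and of 5 Lrfn genes 1. None of the 5 cadherin-related genes (Cdhr1 to Cdhr5) was listed.

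Listed adhesion genes held more sites than listed genes in general. The median was 7 sites per gene (95% interval of the median 4 to 10, n = 55), beside 2 for the 4151 other listed genes. In 22 adhesion genes there were 10 or more sites, which is 40.0% beside 16.6% of the other genes, and these 22 held 522 of the 647 sites. A single site was found in 10 adhesion genes. Adhesion transcripts were longer, with a median of 5671 nt for the longest coding transcript beside 4321 nt, and a median 3' UTR of 2995 nt beside 1823 nt. Per kb of that transcript the median was 1.03 sites beside 0.555, so a gap remained per unit of length. Expression was not available to set beside it.

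**Figure D1:**
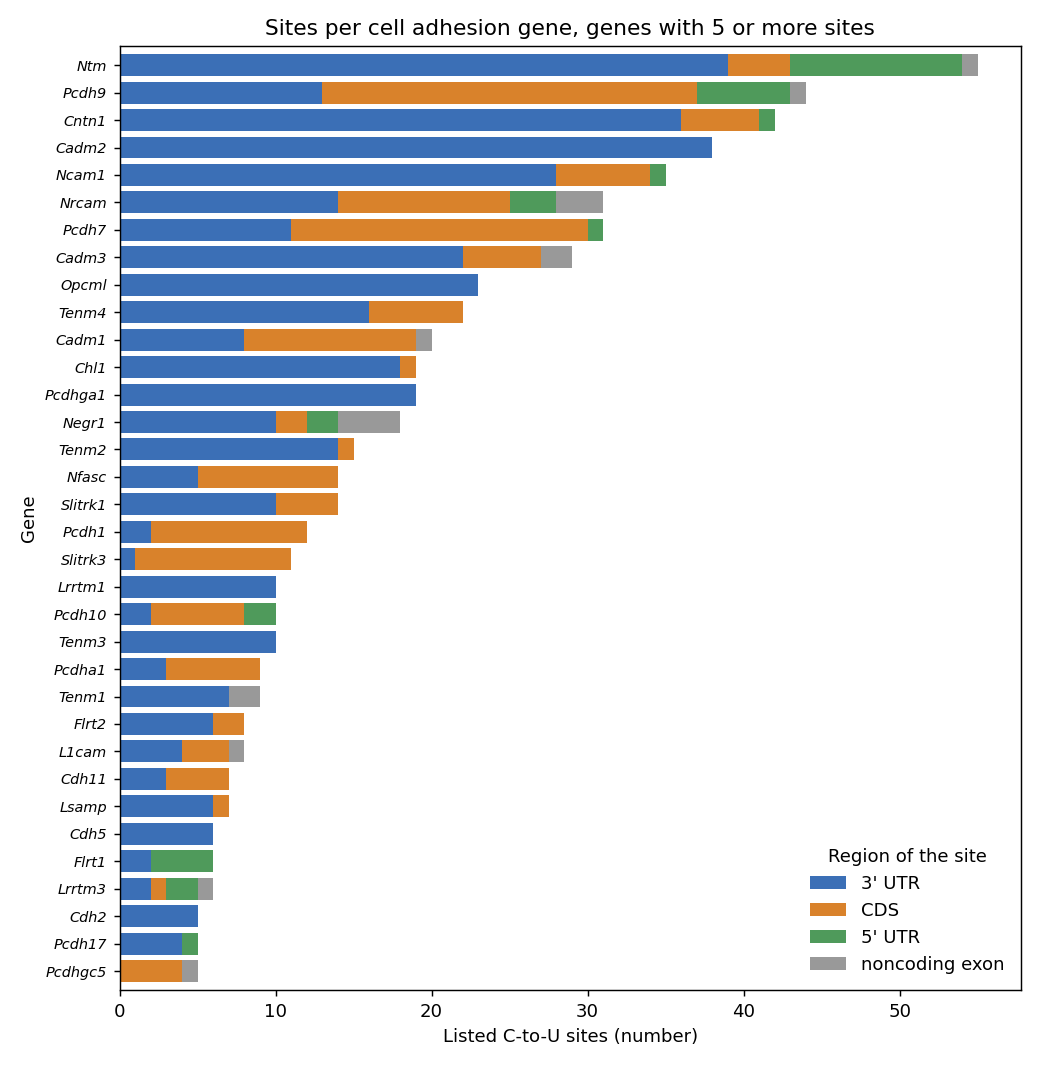
Number of listed C-to-U sites (x axis) in each adhesion gene with 5 or more sites (y axis), with bar colours for the region of the site. Ntm leads with 55 sites and Pcdh9 follows with 44; Cadm2 and Opcml have 3' UTR sites only, while Slitrk3 and Pcdh1 have mostly CDS sites.

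The site count, the whole number deposited for each site, was not higher in adhesion genes. What it counts is not stated. It ran from 3 to 210 with a median of 4, the same median as in the other genes. Counts of 10 or more were found at 157 adhesion sites, 24.3% (95% Wilson interval 21.1 to 27.7), beside 24.7%. At the upper end the adhesion genes held fewer: 12 sites, 1.86%, reached 50, beside 4.41%, and 3 sites, 0.464%, reached 100, beside 2.02%. The other genes include noncoding RNAs, their counts reached 3538, and coding genes alone were not compared. Within a gene the sum of counts was spread over many sites. Among genes with 10 or more sites the strongest site held a median of 17.7% of the gene's summed count in adhesion genes and 20.5% in the others. It ranged from 7.93% in Cadm2 to 55.6% in Nfasc. All intervals here treat sites as independent and cover counting error only; sites of one gene are not independent, so they are too narrow.

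**Figure D2:**
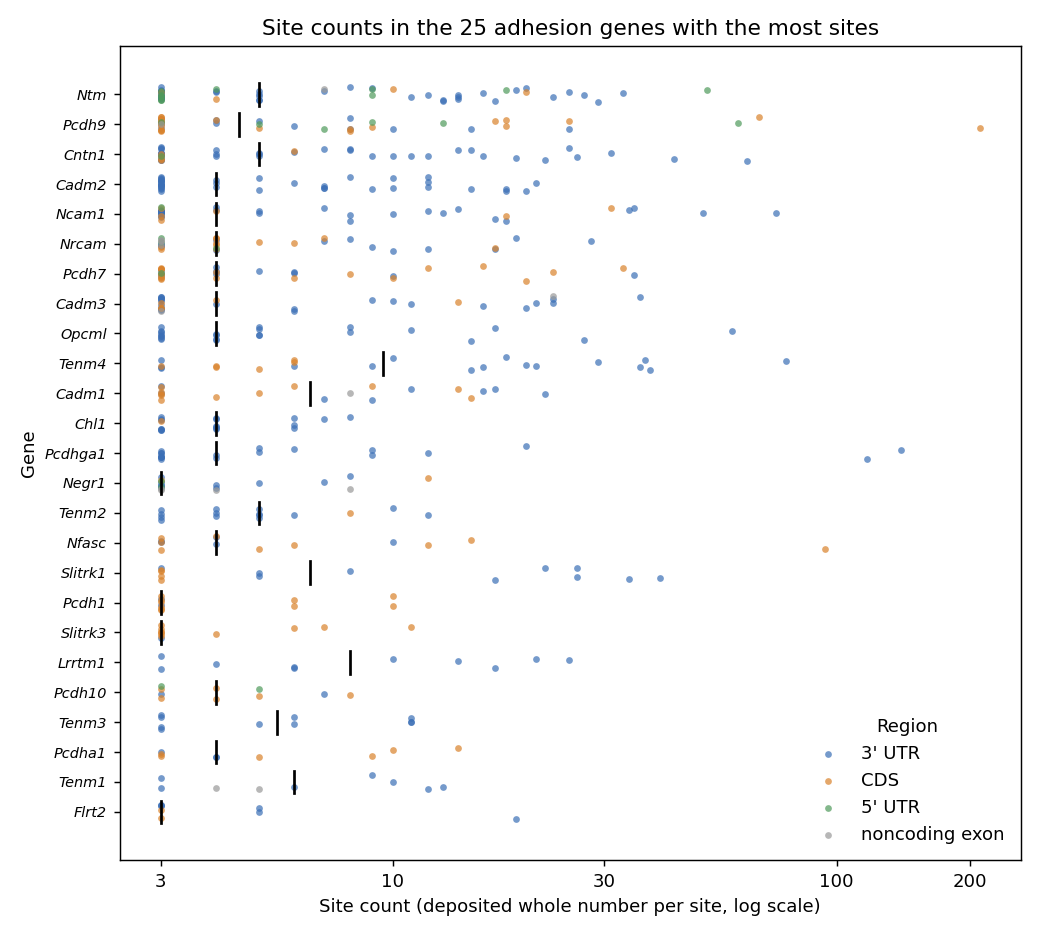
Deposited site count of each site (x axis, log scale) in the 25 adhesion genes with the most sites (y axis), 1 point per site, coloured by region, with a black bar at the median of each gene. Medians lie between 3 and 9.5, and the highest points are 210 in Pcdh9, 140 and 117 in Pcdhga1 and 94 in Nfasc.

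Strong sites of 6 leading genes are given as windows of 25 nt on the transcript strand, to show the context in which editing was recorded. They were read from GENCODE M21 transcripts on mm10. Capitals mark the 5-nt context, in which the edited C is base 4 and the A that would carry m6A is base 3.
Pcdh9, CDS, count 210, chr14:93886294-93886318, minus strand: accttatcaGAACGaggactatctc
Tenm4, 3' UTR, count 77, chr7:96906659-96906683, plus strand: tgttgtactTAACAaaaaacaaaca
Ncam1, 3' UTR, count 73, chr9:49503637-49503661, minus strand: ataaaacttCAACAtagtttggttg
Cntn1, 3' UTR, count 63, chr15:92339694-92339718, plus strand: attagactcTAACAagctgttcaac
Pcdh9, 5' UTR, count 60, chr14:93888727-93888751, minus strand: agaacataaAGACAttatcatggac
Opcml, 3' UTR, count 58, chr9:28920463-28920487, plus strand: tatgcccccAAACGgaatctattcc
Ntm, 5' UTR, count 51, chr9:29962941-29962965, minus strand: aaccgatccTGACAaaaaagaagaa
Every one of these 7 holds A before the edited C and A or G before that. The same held for all 381 adhesion sites with counts of 4 or more, so the 7 could not differ in this. In none of the 7 is the edited C part of GGAC, the form best known for m6A. The 7 are a selection, and the adhesion sites with counts of 140, 117 and 94 are not among them. GGACA was the context of 11 adhesion sites with counts of 4 or more, the highest of them 140.

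Non-clustered protocadherins, homophilic cadherin-repeat proteins encoded by single genes, had most of their sites in the coding sequence, as the Slitrk genes did. Of their 105 sites, 59 lay in CDS, 34 in 3' UTRs and 10 in 5' UTRs. Pcdh9 (chr14:93013410-93890679, minus strand), a protocadherin of cortical neurons, held 44 sites, the 95th place in the whole list by number of sites. All 24 of its CDS sites fell in exon 2, which is 3192 nt long and carries most of the reading frame. The count of 210 lay 1287 nt before the end of the stop codon and made up 33.6% of the gene's summed count. A second strong CDS site, with a count of 67, lay 1103 nt before it. Another 6 sites were in the 5' UTR, with counts of 3, 5, 7, 9, 13 and 60. Pcdh7 (chr5:57717967-58133230, plus strand), another member of the delta protocadherins, held 31 sites, of which 19 were in CDS and all 19 of those in exon 1, of 4312 nt. Its highest counts were 35 in the 3' UTR and 33 and 23 in CDS.

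Other protocadherins of this group differed in where their sites lay. Pcdh1 held 10 CDS sites of 12, and Pcdh10, a delta protocadherin of developing axons, 6 of 10. Pcdh17 and Pcdh19, chosen after their values were seen, held 5 and 2 sites and none in CDS. Pcdh19, the gene of an X-linked epilepsy, had both of its sites in the 3' UTR. Pcdh11x held 1 site, and Pcdh12, Pcdh15, Pcdh18, Pcdh20 and Pcdh8 held none.

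Clustered protocadherins give neurons their individual surface codes, by joining 1 of many variable first exons to constant exons shared by a whole cluster. Sites in a shared exon cannot be assigned to 1 gene. All 19 Pcdhga1 sites lay in the 3' UTR of the gamma constant exon, which 21 symbols share, and all 9 Pcdha1 sites lay in exonic sequence that 13 symbols share. These symbols stand for the clusters. After the 210 in Pcdh9, the gamma 3' UTR held the highest counts of all adhesion sites, 140 and 117, at 275 and 164 nt after the stop codon, and its next highest count was 20. Pcdhgc5 had 5 sites, with counts of 4 to 8, in exons annotated for it alone. No beta protocadherin, whose genes consist of 1 exon each, was listed.

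Classical and other cadherins carried few sites, 29 over 8 genes with a median count of 3. Cdh11, a type II cadherin, held 7, with 1 count of 36 in CDS and the others between 3 and 5. Its 4 CDS sites formed 2 pairs 3 nt apart, and all 4 were at the third base of a codon. Cdh5, the cadherin of endothelial junctions, was chosen after its values were seen. It held 6 sites, all between 52 and 195 nt after the stop codon. Cdh2, N-cadherin, held 5 sites with counts up to 5. Cdh1, Cdh6, Cdh7 and Cdh9 were among the 15 without a site.

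The L1 family, immunoglobulin proteins that bind ankyrins at axon initial segments and nodes, held 72 sites in 4 genes. Nrcam led with 31 sites, 14 in the 3' UTR and 11 in CDS. Nfasc (chr1:132564690-132741797, minus strand), the gene of neurofascin, which anchors the axon initial segment and the paranode, held 14. Its 9 CDS sites were in exons 5, 7, 8 and 9 of 30, each 106 to 171 nt long. The strongest, with a count of 94, was 9 nt from a splice junction and 3605 nt before the end of the stop codon. Chl1, close homolog of L1, showed the opposite layout, with 18 of 19 sites in its 3' UTR and no count above 8. L1cam held 8 sites, 4 of them in the 3' UTR.

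Contactins, lipid-anchored immunoglobulin proteins, were represented almost wholly by Cntn1 (chr15:92051165-92341967, plus strand), with 42 sites. In its 3' UTR there were 36 sites, or 15.1 per kb, and 20 of its 42 sites fell within 400 nt of the stop codon. A stretch from 102 to 129 nt after it held counts of 15, 16, 63, 3 and 43. Cntn2 held 1 site, and Cntn3, Cntn4, Cntn5 and Cntn6 none. Cntnap2, a neurexin-like partner of Cntn2 at juxtaparanodes, held 4 sites with counts up to 6. Ncam1, the neural cell adhesion molecule, held 35 sites. Its 3' UTR carried a dense stretch from 1715 to 1887 nt after the stop codon, with counts of 73, 50, 35 and 34 among others. Its paralog Ncam2 held 4 sites with counts up to 6.

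IgLONs are lipid-anchored proteins with a few immunoglobulin domains that shape neurite outgrowth and synapse number. They held 103 sites, 78 of them in 3' UTRs, and 55 of the 103 were in Ntm. Ntm (chr9:28994750-29963141, minus strand), the gene of neurotrimin, had the most sites of all adhesion genes, 55, and took the 60th place in the whole list. With 39 sites in a 3' UTR of 1784 nt it reached 21.9 sites per kb there. It also held 11 of the 37 adhesion sites in 5' UTRs, with counts of 51, 18, 9 and 9 and the others of 3 or 4. Opcml, the opioid-binding cell adhesion molecule, had all 23 sites in its 3' UTR, from 288 to 4758 nt after the stop codon, led by the count of 58. Negr1, neuronal growth regulator 1, held 18 sites with a median count of 3, and Lsamp, the limbic system-associated protein, 7.

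SynCAMs, the Cadm genes, span the synaptic cleft and bind one another in pairs. They held 88 sites, and the 4 paralogs differed in layout. Cadm2 (chr16:66655421-67620908, minus strand) had all 38 of its sites in a 3' UTR of 7672 nt. Only 4 lay within 400 nt of the stop codon, and its highest count, 21, was 6113 nt after it. Cadm3 held 22 of 29 sites in its 3' UTR, with a highest count of 36. Cadm1 held 11 CDS sites of 20, including 6 from 87 to 33 nt before the end of the stop codon. Cadm4 held 1. Nectins, which link to the actin-binding protein afadin, held 5 sites in all, 4 of them in Nectin3.

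Leucine-rich repeat proteins of the postsynaptic membrane held modest numbers. Slitrk proteins, which bind presynaptic receptor phosphatases, held 29 sites, 16 in CDS. Slitrk1, a gene encoded by 1 exon, had 10 of 14 sites in its 3' UTR, 7 of them packed between 476 and 507 nt after the stop codon with counts of 5 to 40. Slitrk3, an organiser of inhibitory synapses, had 10 of 11 in CDS, with none above 11. All 10 Lrrtm1 sites, in the gene of a neurexin ligand, were between 103 and 201 nt after the stop codon, in a 3' UTR of 387 nt. Lrfn5 held 3 sites and Flrt2, a ligand of latrophilins and Unc5 receptors, 8. Flrt1, chosen after its values were seen, held 4 of its 6 sites in the 5' UTR.

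Teneurins are very large proteins that pair with latrophilins across the cleft, and their sites gathered just after the stop codon. On the longest coding transcripts 45 of 54 teneurin sites, 83.3%, were within 400 nt of the stop codon, 44 of them after it. For all adhesion genes the share was 193 of 607, 31.8% (95% Wilson interval 28.2 to 35.6), beside 30.3% in the other genes, and without the teneurins 26.8%. The IgLONs, at 13 of 98 or 13.3%, and the SynCAMs, at 15 of 84 or 17.9%, were at the other end among families with over 50 sites on these transcripts. Families with fewer sites ran from 0% (nectins, 1 site) to 72.2% (Lrrtm, 13 of 18). Clustered protocadherins were at 52.9% and cadherins at 48.0%. Tenm4 (chr7:96171246-96911093, plus strand), the teneurin with the most sites, had all 16 of its 3' UTR sites in the first 153 nt of a 3' UTR of 4502 nt. Their counts were 3 to 77, and the gene's median count, 9.5, was the highest among the 25 genes with the most sites. Tenm2 had 14 of 15 sites in the 3' UTR, 84 to 553 nt after the stop codon. All 10 Tenm3 sites were 94 to 308 nt after it. In Tenm1, 6 of 7 3' UTR sites were 1 to 70 nt after it. The 4 coding sequences, 33.0 kb together, held 7 sites, or 0.212 per kb. In the other families with over 50 sites on these transcripts the CDS held 1.64 per kb (L1 family), 1.70 (IgLONs), 2.34 (non-clustered protocadherins) and 3.29 (SynCAMs). A low value was not particular to the teneurins. Families with fewer sites ran from 0 (nectins) to 1.54 per kb (Slitrk), with 0.156 in Lrrtm, 0.245 in contactin-associated proteins and 0.308 in cadherins.

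In Tenm4, Tenm1 and Slitrk3 the edited C was the first base after the stop codon, so the A beside it was the last base of TAA or TGA. Counts there were 15, 3 and 3. Of 13 listed adhesion genes whose stop codon is TAA or TGA followed by C, these 3 had a site at that C, 23.1% (95% Wilson interval 8.18 to 50.3). In the other listed genes it was 27 of 603, 4.48%. This comparison was added after these sites had been seen, and it rests on 3 sites.

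**Figure D3:**
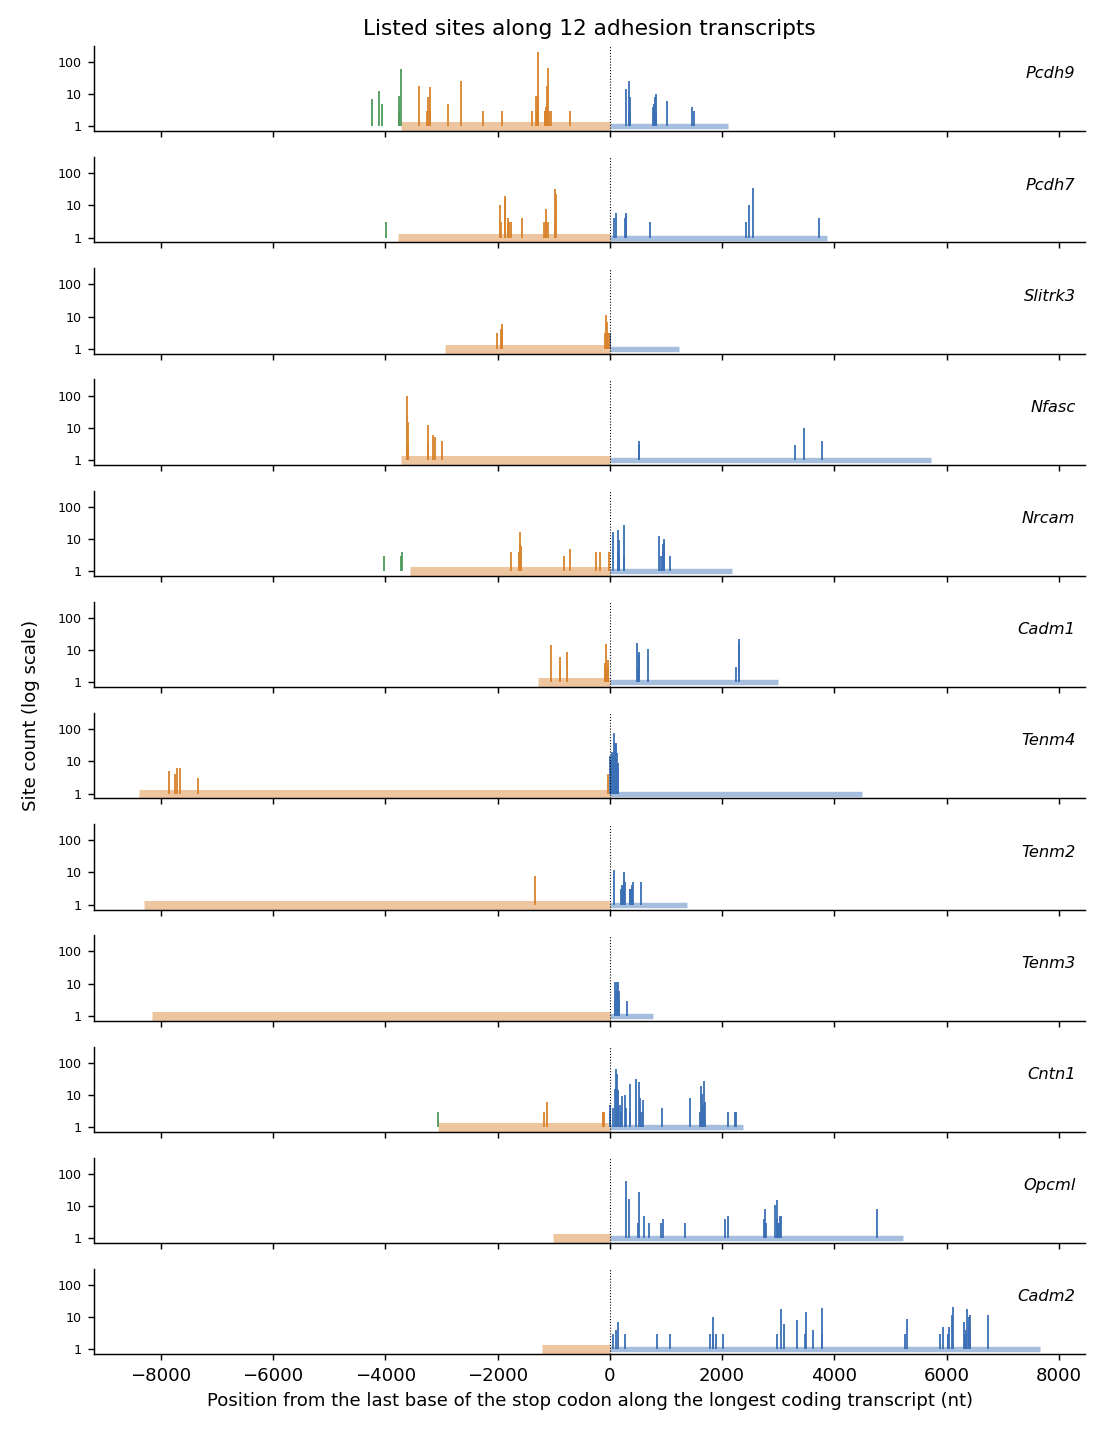
Listed sites along the longest coding transcript of 12 adhesion genes, as distance from the last base of the stop codon in nt (x axis) and site count (y axis, log scale). Orange bars mark CDS, blue bars 3' UTR, and each vertical line is 1 site, green in the 5' UTR. CDS sites dominate in Pcdh9, Pcdh7 and Slitrk3, sites crowd just after the stop codon in Tenm4, Tenm2 and Tenm3, and those of Cadm2 extend to 6746 nt after it.

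Over all 55 genes, 420 sites were in 3' UTRs, 64.9% (95% Wilson interval 61.2 to 68.5), beside 58.5% in the other genes. CDS held 168, 26.0% (22.7 to 29.5), beside 29.2%, and noncoding exons 22, 3.4% beside 10.2%. The other genes include noncoding RNAs, as 3767 of the 4151 have a coding transcript. Among sites in UTRs and CDS alone, the 3' UTR share was 67.2% (63.4 to 70.8) beside 65.3%, and the CDS share 26.9% (23.6 to 30.5) beside 32.6%. The 5' UTR share, 37 sites or 5.72% (4.18 to 7.78), was above the 1.89% of the other genes. Without Ntm and Pcdh9 it was 3.65% (2.38 to 5.57). The deposited sites were also set against the cytosines of AAC or GAC (RAC) on the transcript strand. Editing was recorded at other cytosines too, and these shares leave out the 128 adhesion sites outside RAC. In adhesion 3' UTRs 330 of 4166 RAC cytosines were listed, 7.92% (7.14 to 8.78), beside 5.44% in the other genes. The 420 sites in 3' UTRs were spread unevenly, with 39 in Ntm, 38 in Cadm2, 36 in Cntn1 and 28 in Ncam1. The 3' UTR share of RAC cytosines was not computed without these genes. In CDS it was 131 of 5621, 2.33% (1.97 to 2.76), beside 2.43%. In 5' UTRs it was 24 of 613, 3.92% (2.65 to 5.76), beside 1.48%, and without Ntm and Pcdh9 13 of 588, 2.21% (1.30 to 3.75).

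**Figure D4:**
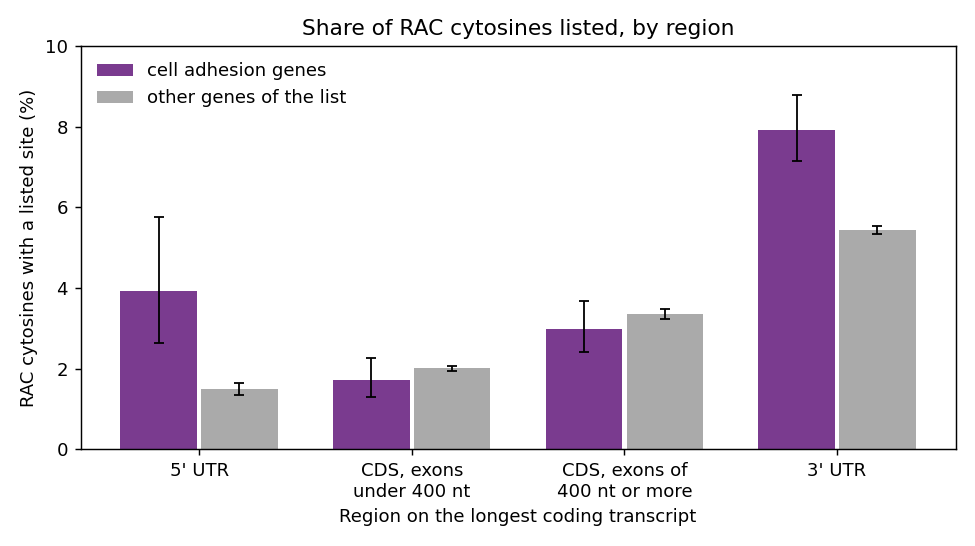
Share of RAC cytosines (AAC or GAC) that carry a listed site, in percent (y axis), by region of the longest coding transcript (x axis), for adhesion genes and the other listed genes. Error bars are 95% Wilson intervals over cytosines; adhesion genes are above the others in the 5' UTR and the 3' UTR, at 7.92% against 5.44% in the latter, and not in either class of CDS exon.

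Within CDS the adhesion sites lay more often in long exons, and the non-clustered protocadherins held most of these. On the longest coding transcripts 100 of 159 CDS sites, 62.9% (95% Wilson interval 55.2 to 70.0), were in exons of 400 nt or more, beside 44.0% in the other genes. Exons of that length other than the last held 63 of the 159, 39.6% beside 26.2%. In genes with both kinds of exon the density was 1.42 sites per kb of CDS in long exons and 0.718 in shorter ones, a ratio of 1.98 (exact conditional 95% interval 1.40 to 2.83). In the other genes the ratio was 1.79 (1.71 to 1.88). Without the non-clustered protocadherins, where 52 of 53 such sites were in long exons, the share was 45.3% and the ratio 1.05 (0.639 to 1.68). Teneurins had 0.163 sites per kb in long exons and 0.240 in shorter ones. In Cadm1 and Cadm4 all long-exon CDS sites lay in the last exon, where the 3' UTR supplies most of the length.

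Codon position differed from the rest of the list. The edited C was the third base of its codon at 98 of 159 CDS sites, 61.6% (53.9 to 68.8), beside 45.9% in the other genes. RAC cytosines of adhesion CDS were themselves at the third base in 59.2% of cases, beside 51.5% in the others, and among sites in RAC the share was 89 of 131, 67.9% (59.5 to 75.3), beside 48.4%. Read through the codon table, C-to-U editing would leave the residue as it is at 98 sites, change it at 51 and create a stop codon at 10. The stop codon class was 6.29% (3.45 to 11.2) beside 11.4%. Whether such edits reach protein was not measured.

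Repeats of asparagine or aspartate codons gave some of the densest coding stretches. Neighbouring CDS sites were exactly 3 nt apart in 17 of 125 pairs, 13.6%, beside 7.41% in the other genes. In Pcdh7 and Nrcam base 3 was edited in 4 successive codons, with capitals marking each edited C. The first of these codons in Nrcam is GGC, for glycine. Pairs of both stretches are among the 17, and the share was not computed without them. A shorter-exon case, Nfasc, is shown with them because it holds the highest count in an exon under 400 nt.
Pcdh7, CDS, counts 20, 12, 16 and 6, chr5:57721000-57721013, plus strand: aaaCgaCaaCgaCc
Nrcam, CDS, counts 3, 7, 17 and 6, chr12:44568617-44568630, plus strand: aggCgaCgaCaaCa
Nfasc, CDS, counts 94, 3, 15 and 3, chr1:132637071-132637086, minus strand: caaCCcccaaCtatCa
The Pcdh7 stretch reads AAC or GAC at all 4 sites, and the weakest of the Nrcam sites is the one outside RAC.

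Most of the dense stretches lay in 3' UTRs. Over all members there were 20 runs of 4 or more sites with neighbours at most 10 nt apart, holding 98 sites, 15.2%, in 15 genes. The longest were 9 sites within 51 nt in Tenm4, 7 within 32 nt in Slitrk1 and 7 within 27 nt in Ntm. In the other listed genes 11.5% of sites were in such runs. Between neighbouring 3' UTR sites, 38.04% of adhesion pairs were within 10 nt, beside 38.13% in the other genes. Tenm2 and Lrrtm1 hold repeats with a C every 4 bases, printed because the spacing is visible in the letters. The Ncam1 stretch is printed beside them for its irregular spacing. Capitals mark each edited C.
Tenm2, counts 4, 5, 6, 10 and 5, chr11:36007771-36007797, minus strand: gaaCgaaCgaaCgaaCgaatgaaaaCa
Lrrtm1, counts 3, 14, 17, 25 and 10, chr6:77245283-77245309, plus strand: tgtCttaaaaaaaCaaaCaaaCaaaCa
Ncam1, counts 34, 3, 8, 4 and 3, chr9:49503581-49503599, minus strand: aaaCaCaaaCaaCtattCa
In the Tenm2 stretch the 5 cytosines, the last of them 10 nt beyond the repeat, had counts between 4 and 10. In the Ncam1 stretch the first took most of the sum. How many of the A bases in such a repeat carry m6A cannot be read from edited cytosines.

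The strongest 3' UTR sites of adhesion genes had a higher median share of A around them, with wide overlap. For RAC sites with counts of at least 10, the 24 flanking bases held a median of 45.8% A (n = 120), beside 37.5% in the other genes. At counts of 4 to 9 it was 41.7% beside 37.5%. Sites in one run share flanking bases, as the 9 within 51 nt in Tenm4 do. Medians over merged sites were not computed, so a few A-rich stretches may weigh heavily. In CDS the order of the medians was the other way, with 37.5% beside 41.7% at counts of at least 10 and 33.3% beside 37.5% at counts of 4 to 9. AAACA was the commonest context at counts of 4 or more, with 71 of 381, 18.6%, beside 14.3%. CAACA followed with 31, 8.14% beside 5.10%. GGACT, often given as the m6A consensus, accounted for 7 of the 381, 1.84% beside 1.77%. DRACH, the wider m6A consensus, is RAC preceded by any base but C and followed by any base but G. Over all counts it covered 356 of 647 sites, 55.0% beside 55.2%, and among counts of 4 or more 260 of 381, 68.2% (63.4 to 72.7) beside 72.2%.

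Sites at the lowest count had another make-up. All 381 adhesion sites with counts of at least 4 were in RAC, as were those of the other genes, while at a count of 3 the share was 138 of 266, 51.9% (45.9 to 57.8), beside 45.7%. The sources used here do not say how sites were filtered, so an edge in the list itself cannot be told apart from a property of the RNA. The 128 adhesion sites outside RAC lay close to stronger ones. For 96 of them, 75.0% (66.8 to 81.7), a RAC site with a count of 4 or more was within 20 nt, and in the other genes it was 74.4%. Over the 126 with any such neighbour in their gene, the median distance was 5.5 nt. For adhesion RAC sites with a count of 3 the share was 22.5%, and for those with a count of 4 or more it was 47.5%.

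Few aligned positions held a site in 2 paralogs, but no background share was computed, so this is a description only. Of the RAC cytosines in adhesion CDS, 2.33% were listed at all. When coding sequences were aligned within families, 143 CDS sites in 9 families gave 2 aligned columns with a site in 2 genes. One was in Cadm1 and Cadm4, near the end of the reading frame, where both hold GGACA. These windows show the match, with capitals for the 5-nt context.
Cadm1, count 5, chr9:47850340-47850364, plus strand: gcagaaggaGGACAgaacaactccg
Cadm4, count 3, chr7:24503580-24503604, plus strand: ggcggcgatGGACAcaaacggaaag
The other column paired Pcdh9 and Pcdh7 sites with a count of 3 each, in TATCT and AGACT, of which the first is outside RAC.

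Binding partners of these molecules were examined from a list. Of 30 partner genes, namely catenins, ankyrins, neurexins, neuroligins, latrophilins, receptor phosphatases and a few others, 25 had a site, which is 83.3% beside the 17.4% of all protein-coding symbols. They held 526 sites, with a median of 13 per listed gene. This list was chosen by hand with results of these data known, so its share is a description only. Ank2 and Ank3, the ankyrins that hold L1 proteins, had 84 and 44. Nrxn3, a presynaptic neurexin, had 57, with a highest count of 50. Adgrl1, a latrophilin bound by teneurins, had 44 and Ptprd, a phosphatase bound by Slitrk proteins, 41. Ctnna2, Ctnna3, Ctnnd1, Iglon5 and Unc5d had none.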

How the data were processed

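scDART-seq of mouse cortex gave 4 sublibraries of a single cell pool, and 1 site list covers them. The authors aligned reads with STAR 2.7.5 to mm10, per the submitters' processing notes, and the series text names Bullseye for finding C-to-U sites, in a passage on sorted neuronal nuclei that may not apply to this list. The deposited list names a position, its strand and gene and 1 whole number, used as an unnormalized count; it has no header, and the sources used here do not state its filters. Sequences of genes on chromosome 18 (53 sites, 8 genes) are not printed.

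Sites were placed on GENCODE M21 by symbol and strand, which matched all 647, and each had a C on its strand. Where transcripts differed, a 3' UTR took precedence over CDS, CDS over a 5' UTR, and that over a noncoding exon. Distances used the longest coding transcript, which held 607 of the 647. At 4 sites (Cadm2, Pcdhgc3, Pcdh7, Tenm1) a gene lies on the opposite strand. Intervals are 95% Wilson, exact conditional for density ratios, and from order statistics for medians. No p-value was computed. Families were aligned with MAFFT 7.526, and the rest was done in Python 3.11.15 with pandas 2.3.3 and scipy 1.17.1. Position, region, context and density code was tested on simulated data. Genes named were the 25 members with the most sites, those with the 10 highest counts, the leader of each family and 6 partners. Not every item chosen this way is reported here. Further members are named to complete a family, or are said to be chosen after their values were seen. The members and lists were chosen with earlier results of these data known.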

Additional observations from a re-analysis of the deposited data

How the results depend on the processing

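Of 60 distinct alternative values, 43 stayed within the interval of the value as reported, or within 1.5 times for counts, and 17 moved. A filter at the list's median count is the same as one at 4 and was tallied once. Keeping counts of 4 or more left 381 adhesion sites, a 3' UTR share of 70.1%, a CDS share of 22.3% and a DRACH share of 68.2%. All 381 were in RAC, which DRACH requires, while 51.9% of those at a count of 3 were. The higher DRACH share is therefore tied to that difference. Merging sites within 10 nt gave a DRACH share of 63.5%. With 1 site per gene, that of the highest count, the median count was 11, the share near the stop codon 39.2%, the DRACH share 63.6% and the long-exon share of CDS sites 80.0% (n = 15). A window of 200 nt around the stop codon held 20.3%. RAC in place of DRACH held 80.2%. Alternatives chosen after seeing the data were as follows. Without non-clustered protocadherins the CDS share was 20.1%, the long-exon share 45.3% and the density ratio 1.05. Without Ntm and Pcdh9 the 5' UTR share was 3.65% and the share of 5' UTR RAC cytosines listed 2.21%, while the share near the stop codon was 26.8% without teneurins. The third codon base share stayed at 63.2% without non-clustered protocadherins. No paired analysis was possible because the sites come in 1 list with no samples. Depth per site and expression are unknown, so a gene or position without a site may only be poorly covered.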
